A study of Mus musculus with 8 samples.

Results

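CC chemokines are small secreted proteins, named for a pair of adjacent cysteines, that attract leukocytes through G protein-coupled receptors. The CC chemokine transcripts described here are 10 genes, Ccl2, Ccl3, Ccl4, Ccl5, Ccl6, Ccl7, Ccl8, Ccl9, Ccl11 and Ccl24, among 55414 genes listed for 8 PyMt mammary tumors. They were chosen by name as rows of the gene table, with earlier results of these data known, and all 10 had enough reads to be tested. RNA-Seq was performed on bulk tumors of WT female C57BL/6 mice, 6 to 8 weeks old, that had received PyMt cells in the mammary fat pad. PyMt is a single cell line derived from a mammary tumor of a C57BL/6 MMTV-PyMt transgenic mouse, in which a mammary promoter drives the polyoma middle T oncogene. In the group of 4 tumors called calcipotriol 1, 5, 6 and 7, the mice received 20 nmol calcipotriol, a vitamin D analog, on the skin over the tumor every 2 days from 2 days after implantation. In the group of 4 called EtOH 1, 2, 3 and 4, they received the EtOH solvent on the same schedule. Tumors were collected 24 hours after the final dose. The comparison asks which of these ligands differed between calcipotriol- and EtOH-treated tumors, and how they varied from tumor to tumor.

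In tumors, CC chemokines bring in monocytes, macrophages, eosinophils and T cells, and tumor-associated macrophages are a main source of many of them. Ccl2 and Ccl7 attract monocytes through Ccr2, mouse Ccl8 acts through Ccr8, and the eotaxins Ccl11 and Ccl24 attract eosinophils through Ccr3. Ccl6 and Ccl9 are rodent myeloid chemokines that bind Ccr1, whereas Ccl3, Ccl4 and Ccl5 attract macrophages and T cells.

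In GRCm38, 9 of the 10 genes lay on chromosome 11. The monocyte chemoattractants and Ccl11 formed a plus-strand row, with Ccl2 at chr11:82035571-82037453, Ccl7 at chr11:82045712-82047525, Ccl11 at chr11:82057823-82062955 and Ccl8 at chr11:82115185-82116799. Further along stood Ccl5 (chr11:83525778-83530518), Ccl9 (chr11:83572919-83578636), Ccl6 (chr11:83587882-83593087) and Ccl3 (chr11:83647844-83649355) on the minus strand, and Ccl4 (chr11:83662584-83664683) on the plus strand. Ccl24 was the only member elsewhere, at chr5:135569937-135573049 on the minus strand. No exon of a member overlapped an exon of another annotated gene. For 9 members no stretch of 50 bases was shared with any other gene of GENCODE M21, and in Ccl9 1.97% of such stretches were, which leaves a small part of its reads open to sharing.

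RefSeq (GRCm38.p6) gave the promoters of 4 members, Ccl3, Ccl6, Ccl8 and Ccl9. The 250 bases before the start are printed for Ccl8, whose level per length was highest among the members in calcipotriol-treated tumors, and for Ccl6 and Ccl9, neighboring genes whose ratio differed between the groups. The windows are chr11:82114935-82115184 on the plus strand, and chr11:83593088-83593337 and chr11:83578637-83578886 on the minus strand, each written 5′ to 3′ on the gene's own strand. Capitals mark a TATAAA motif in Ccl8, and in Ccl6 and Ccl9 the bases identical in an alignment of these genes.
Ccl8: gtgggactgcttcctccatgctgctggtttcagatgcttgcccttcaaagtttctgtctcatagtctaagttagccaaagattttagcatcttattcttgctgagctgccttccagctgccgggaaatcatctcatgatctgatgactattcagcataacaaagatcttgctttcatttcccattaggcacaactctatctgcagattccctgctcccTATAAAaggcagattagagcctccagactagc
Ccl6: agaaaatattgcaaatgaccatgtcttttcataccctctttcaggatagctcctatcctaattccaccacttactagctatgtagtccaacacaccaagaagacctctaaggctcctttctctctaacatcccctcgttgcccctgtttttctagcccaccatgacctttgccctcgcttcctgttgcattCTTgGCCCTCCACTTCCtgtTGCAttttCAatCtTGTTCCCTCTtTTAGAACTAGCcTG
Ccl9: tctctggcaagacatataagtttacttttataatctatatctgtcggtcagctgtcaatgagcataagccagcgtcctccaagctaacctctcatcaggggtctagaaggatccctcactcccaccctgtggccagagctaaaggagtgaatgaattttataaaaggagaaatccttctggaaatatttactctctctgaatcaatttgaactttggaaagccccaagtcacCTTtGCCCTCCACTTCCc
The best local alignment of Ccl6 and Ccl9, over these windows and the 50 bases after the start, held 59 identical bases in 74 columns (79.7%), from position -59 of Ccl6 and position -18 of Ccl9. For the other pairs among the 4 promoters, the best alignments ran over 29 to 118 columns with 60.2% to 73.5% identity.

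Both strands of the 250-base windows were searched for 5 motifs, TATAAA (the TATA box), CCAAT (the CCAAT box), TTCNNNGAA (bound by STAT factors), TGANTCA (AP-1) and GAGGAAG (PU.1). The Ccl8 window held TATAAA once, at position -32, as did 12.4% of the 32851 RefSeq promoter windows of this length at least once. It also held GAGGAAG at position -241, a motif present in 10.6% of windows. The Ccl9 window held 3 TATAAA matches, of which 2 overlap on opposite strands, and it held TGANTCA at position -53 (6.75% of windows). The Ccl6 and Ccl3 windows held none of the 5. A match is a string of letters and not a measured binding site.

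The libraries held 19685419 to 25084713 estimated counts each, with 20908411 to 25084713 in EtOH-treated and 19685419 to 24673432 in calcipotriol-treated tumors. Levels are given as CPM, counts scaled by the TMM library size, where 3 counts correspond to 0.119 to 0.146 CPM. Among the tumors, calcipotriol 1 stood apart from the others of its group. Its summed level of 11 pan-macrophage markers was 2053 CPM, against 932 to 1134 CPM in calcipotriol 5, 6 and 7 and 2242 to 2759 CPM in EtOH-treated tumors. Its summed level of 8 T and NK cell markers was 12.2 CPM, against 2.33 to 4.20 CPM for calcipotriol 5, 6 and 7 and 0.529 to 2.29 CPM in EtOH-treated tumors. The EtOH-treated tumors also fell into pairs, with 249 and 284 CPM of 6 summed endothelial markers in EtOH 1 and 2 and 123 and 117 CPM in EtOH 3 and 4. This sum was lower in every calcipotriol-treated tumor, at 45.2 to 97.8 CPM. The epithelial markers Epcam and Krt19 were listed at 0 counts in EtOH 1 and EtOH 2, while the keratins Krt8 and Krt18 were above 250 CPM in every tumor. The labels give the cell type as epithelial, but the libraries come from whole tumors. In bulk tumors, fewer cells of a type and less RNA per cell cannot be told apart.

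Ccl24 was the 1 of the 10 members that passed both thresholds of the edgeR quasi-likelihood test, a log2 fold change of 1 or more in size and an adjusted p under 0.05 over all genes, and it rose. Among all 14458 genes tested, 1.07% were higher past these thresholds. Ccl8, Ccl11 and Ccl24 were higher in every calcipotriol-treated tumor than in every EtOH-treated tumor, which makes 3 of 10 members, against 6.32% of all genes. Of the members, 9 had a positive log2 fold change and 1 a negative one, against 52.1% positive among all genes. Because the members were chosen with earlier results known, an excess over the shares of all genes is no test of the family. With DESeq2, 3 members passed (Ccl8, Ccl11 and Ccl24), against 2.18% of all genes higher, and with limma-voom 1 passed (Ccl8), against 0.865%. Without calcipotriol 1, Ccl6, Ccl8 and Ccl24 passed in edgeR, against 1.62%. Without EtOH 3 (against 0.605%), with no filter on low counts (against 1.04%) and with at least 10 counts in every tumor (against 1.09%), Ccl8 and Ccl24 passed. The median log2 fold change was 0.80 over the members and 0.02 over all genes.

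**Figure D1:**
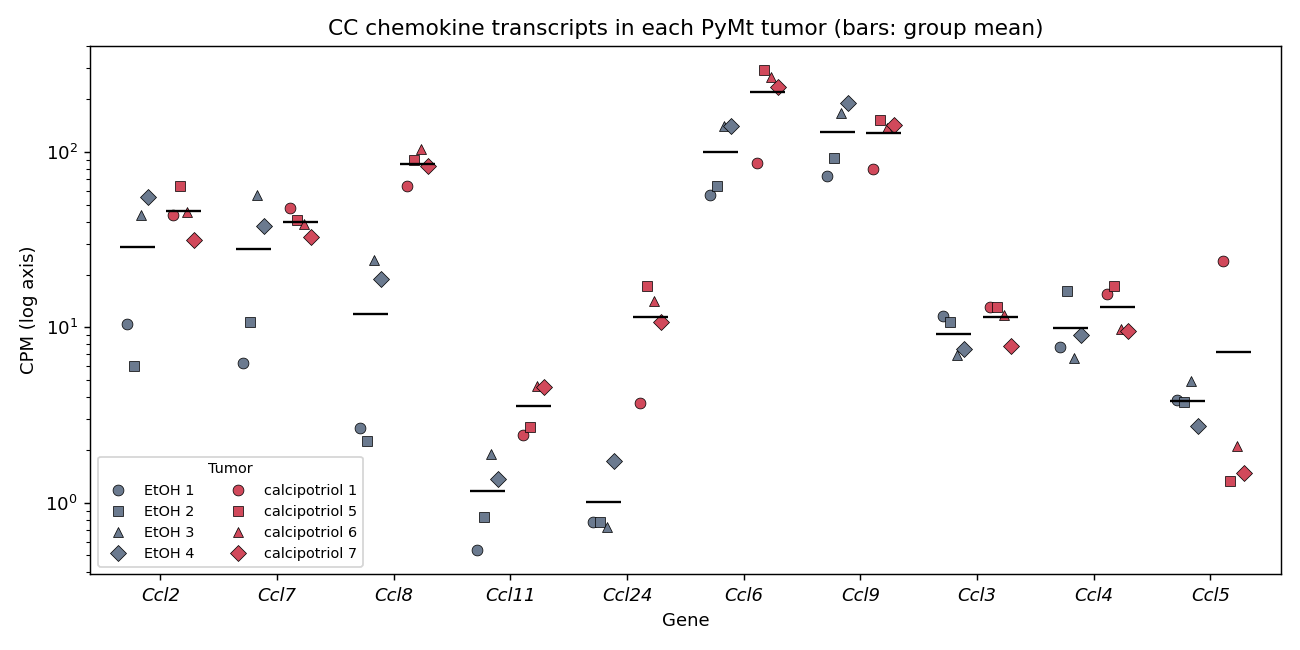
CPM on a log axis for each of the 10 CC chemokine transcripts, with a marker for each EtOH-treated (gray) and calcipotriol-treated (red) tumor and a bar at each group mean. The red points of Ccl8, Ccl11 and Ccl24 all lie above the gray ones, and Ccl5 has a single high red point, calcipotriol 1 at 23.9 CPM.

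Ccl24 (ENSMUSG00000004814), or eotaxin-2, is an eosinophil attractant. It was at 0.778, 0.779, 0.729 and 1.72 CPM in EtOH 1, 2, 3 and 4, and at 3.70, 17.3, 14.1 and 10.7 CPM in calcipotriol 1, 5, 6 and 7. The groups did not overlap, although calcipotriol 1, at 3.70 CPM, was nearer to the highest EtOH value of 1.72 CPM than to the rest of its group. The EtOH values rest on 16 to 39 counts per tumor. The group means were 1.0 ± 0.480 and 11.4 ± 5.83 CPM in EtOH- and calcipotriol-treated tumors (SD, n = 4 each). The log2 fold change was 3.5 (SE 0.51, edgeR adjusted p = 0.009), or 3.80 without calcipotriol 1 (edgeR adjusted p = 0.000658). It was past the thresholds in 12 of 13 alternative fits, whose adjusted p ranged from 7.47e-10 to 0.0961, and missed them with limma-voom (log2 fold change 3.33).

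Ccl11 (ENSMUSG00000020676), or eotaxin, attracts eosinophils through the same receptor. Its levels were low, at 0.535, 0.828, 1.9 and 1.37 CPM in EtOH 1 to 4 and 2.42, 2.70, 4.62 and 4.54 CPM in calcipotriol 1, 5, 6 and 7. The groups did not overlap, but the highest EtOH value and the lowest calcipotriol value were less than 1 CPM apart. The log2 fold change of 1.61 (SE 0.50) did not pass (edgeR adjusted p = 0.12). DESeq2 gave 1.62 with an adjusted p of 0.026, the lowest of the 13 alternatives, whose highest was 0.308. An exact two-sided permutation test of the difference in mean log2 CPM gave p = 0.0286, the smallest that 4 tumors against 4 allow, for Ccl8, Ccl11 and Ccl24, and 0.0857 to 0.971 for the other members. The smallest p follows whenever the groups do not overlap, so it repeats that fact, which held in this direction for 6.32% of all genes.

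Eosinophils, the cells that both eotaxins attract, left few reads. None of 8 eosinophil markers had enough counts to be tested, and their summed level was 0.0487 to 1.32 CPM with EtOH and 0.385 to 1.95 CPM with calcipotriol. The granule genes Prg2, Prg3, Ear1 and Ear6 were at 0 counts in every tumor. Ccr3, the eotaxin receptor, had 0, 12, 10 and 0 counts in EtOH 1 to 4 and 7, 0, 0 and 0 counts in calcipotriol 1, 5, 6 and 7.

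Ccl8 (ENSMUSG00000009185), monocyte chemoattractant protein 2, is made by macrophages among other cells, and its values were far apart between the groups. It was at 2.68, 2.24, 24.1 and 18.9 CPM in EtOH 1 to 4 and at 64.2, 90.5, 104.5 and 83.5 CPM in calcipotriol 1, 5, 6 and 7. The calcipotriol-treated tumors lay close together, whereas EtOH 1 and 2 were far below EtOH 3 and 4, a 10.8-fold range within the EtOH group. The means were 12.0 ± 11.2 and 85.7 ± 16.8 CPM in EtOH- and calcipotriol-treated tumors (SD, n = 4 each). The log2 fold change of 2.83 (SE 0.66) just missed the threshold (edgeR adjusted p = 0.0511). Ccl8 passed in 6 of 13 alternative fits, among them DESeq2 (adjusted p = 0.00785), limma-voom (adjusted p = 0.015) and edgeR without calcipotriol 1 (adjusted p = 0.0354), over a range of 0.00523 to 0.131. Its receptor Ccr8 had 0 counts in all 4 EtOH-treated tumors and 14, 7, 0 and 4 counts in calcipotriol 1, 5, 6 and 7, too few to be tested.

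Ccl2 and Ccl7, the other monocyte chemoattractants of the row, did not follow Ccl8 in calcipotriol-treated tumors. Ccl2 was at 10.5, 5.99, 43.9 and 55.1 CPM in EtOH 1 to 4 and at 43.8, 64.3, 45.2 and 31.5 CPM in calcipotriol 1, 5, 6 and 7. Ccl7 was at 6.28, 10.7, 56.7 and 37.8 CPM in EtOH 1 to 4 and at 47.8, 40.8, 38.8 and 32.8 CPM in calcipotriol 1, 5, 6 and 7. For both genes EtOH 3 and 4 fell among the calcipotriol-treated tumors, and EtOH 1 and 2 were below all others. The group means of Ccl2 were 28.9 ± 24.3 CPM with EtOH and 46.2 ± 13.6 CPM with calcipotriol (SD, n = 4 each), a log2 fold change of 0.68 (SE 0.58, edgeR adjusted p = 0.581). For Ccl7 they were 27.9 ± 23.7 and 40.0 ± 6.17 CPM (SD, n = 4 each), a log2 fold change of 0.52 (SE 0.55, edgeR adjusted p = 0.666). The 9.20-fold range of Ccl2 and the 9.03-fold range of Ccl7 within the EtOH group were wider than these group differences.

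Ccl6 (ENSMUSG00000018927) and Ccl9 (ENSMUSG00000019122), which attract myeloid cells through Ccr1, were the members with the most reads. Ccl6 was at 56.6, 63.7, 141 and 141 CPM in EtOH 1 to 4 and at 86.9, 294, 267 and 233 CPM in calcipotriol 1, 5, 6 and 7. Calcipotriol 1 lay among the EtOH-treated tumors, and the remaining 3 calcipotriol-treated tumors were above all of these, as for 10.8% of all genes. The means were 101 ± 46.9 and 220.3 ± 92.3 CPM in EtOH- and calcipotriol-treated tumors (SD, n = 4 each). The log2 fold change was 1.13 (SE 0.40, edgeR adjusted p = 0.169). Without calcipotriol 1 it was 1.40 and passed (adjusted p = 0.031), the only one of 13 alternatives to do so, with adjusted p up to 0.354.

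Ccl9 had nearly equal group means, 130.4 ± 56.3 CPM with EtOH and 128 ± 32.4 CPM with calcipotriol (SD, n = 4 each). It was at 72.9, 93.0, 166 and 189.5 CPM in EtOH 1 to 4 and at 79.8, 152, 138 and 142 CPM in calcipotriol 1, 5, 6 and 7. The lowest tumors were EtOH 1 and calcipotriol 1, and the highest were EtOH 4 and 3. The log2 fold change was -0.03 (SE 0.31, edgeR adjusted p = 0.97), and it was between -0.23 and 0.20 over the 13 alternatives.

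Ccl3 and Ccl4, the macrophage inflammatory proteins 1α and 1β, varied within a group by up to 1.66-fold and 2.40-fold. Ccl3 was at 11.5, 10.7, 6.97 and 7.50 CPM in EtOH 1 to 4 and at 13.0, 13.0, 11.7 and 7.84 CPM in calcipotriol 1, 5, 6 and 7. Ccl4 was at 7.73, 16.2, 6.72 and 9.04 CPM in EtOH 1 to 4 and at 15.5, 17.2, 9.76 and 9.58 CPM in calcipotriol 1, 5, 6 and 7. The groups overlapped for both, and unlike Ccl2, Ccl7 and Ccl8 neither was low in both EtOH 1 and EtOH 2. The log2 fold changes were 0.31 for Ccl3 (SE 0.25, edgeR adjusted p = 0.556) and 0.39 for Ccl4 (SE 0.32, edgeR adjusted p = 0.559).

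Ccl5, also called RANTES, attracts T cells and is made by activated T and NK cells among others. It was at 3.84, 3.75, 4.94 and 2.74 CPM in EtOH 1 to 4 and at 23.9, 1.33, 2.12 and 1.48 CPM in calcipotriol 1, 5, 6 and 7. Calcipotriol 1 was the highest of all 8 tumors and the other 3 calcipotriol-treated tumors were the lowest. Its log2 fold change was 0.92 (SE 0.85, edgeR adjusted p = 0.618), and without calcipotriol 1 it was -1.22 (adjusted p = 0.119), so the direction rests on that tumor. Without calcipotriol 1, every EtOH value of Ccl5 was above every calcipotriol value, as for 12.2% of all genes. The 8 T and NK cell markers did not all follow it. Cd3e, Cd3g, Cd4, Cd8a and Gzma were highest in calcipotriol 1, Cd3g at 4.01 CPM against at most 0.625 CPM elsewhere, whereas Cd3d and Klrb1c were at 0.0397 and 0.0795 CPM there, below their highest values of 1.05 CPM (calcipotriol 5) and 0.681 CPM (EtOH 1), and Ncr1 was at 0. The summed level of the 8 markers was 2.33 to 4.20 CPM in calcipotriol 5, 6 and 7, against 0.529 to 2.29 CPM with EtOH. Ccl5 was lower in calcipotriol 5, 6 and 7 than in every EtOH-treated tumor. Of 8 T and NK cell markers, 3 were tested and none passed, and their part in the Ccl5 level was not tested.

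**Figure D2:**
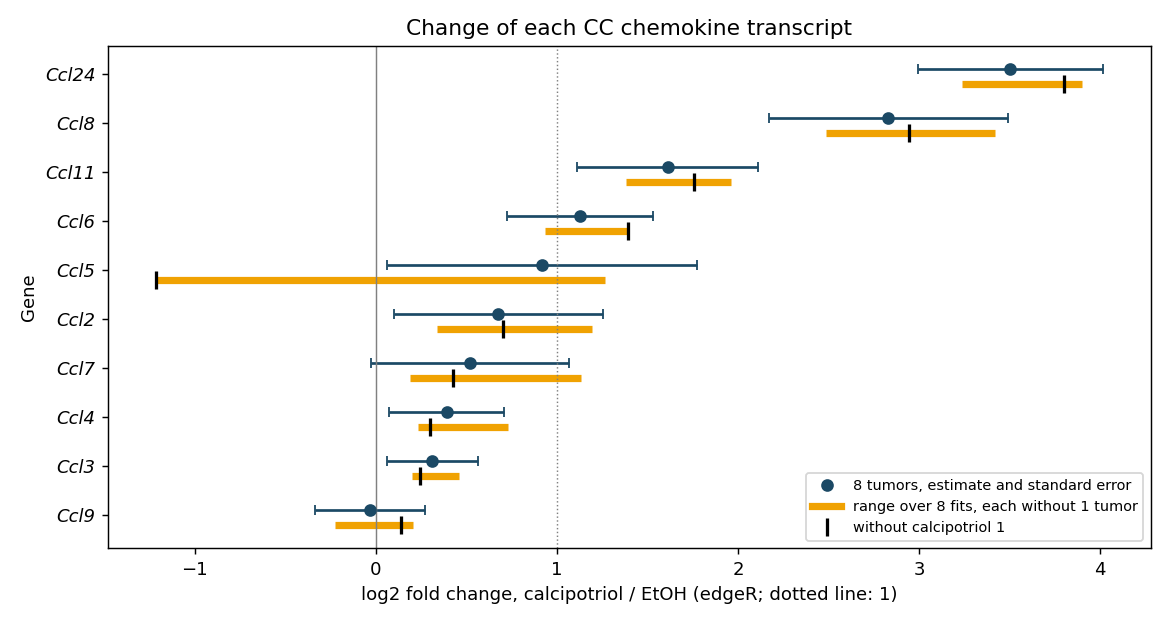
Log2 fold change of calcipotriol- over EtOH-treated tumors for each gene, as the edgeR estimate with its standard error (blue), the range over 8 fits that each leave out 1 tumor (orange) and the fit without calcipotriol 1 (black tick). The estimates run from -0.03 for Ccl9 to 3.5 for Ccl24, and only the orange bars of Ccl5 and Ccl9 cross 0.

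Per kilobase of exon, the order of the ligands differed between treatments. In EtOH-treated tumors the highest mean was 56.1 CPM per kb for Ccl6, followed by 42.8 for Ccl9, 34.8 for Ccl7, 25.4 for Ccl2 and 23.5 for Ccl8, and the ranges of these 5 genes overlapped. Ccl4 (15.0) and Ccl3 (12.0) came next with ranges that overlapped each other and that of Ccl8, and Ccl5 (3.98) was below Ccl3 in every tumor. Ccl11 (1.07) and Ccl24 (0.773) were lowest, and their ranges overlapped.

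In calcipotriol-treated tumors Ccl8 came first, at 167.6 ± 32.9 CPM per kb (SD, n = 4), above Ccl6 at 123 ± 51.4 CPM per kb (SD, n = 4). These neighbors overlapped in range, 126 to 205 for Ccl8 and 48.4 to 164 for Ccl6. Ccl7 (49.99), Ccl9 (41.9) and Ccl2 (40.6) had overlapping ranges, and all 3 overlapped Ccl6 through its calcipotriol 1 value. Ccl4 (19.7) lay below Ccl2 in range and overlapped Ccl3 (14.9). Ccl24 (8.84), Ccl5 (7.50) and Ccl11 (3.30) had the lowest means and overlapping ranges. The place of Ccl5 rests on calcipotriol 1, at 24.9 CPM per kb, above the range of Ccl3 and within that of Ccl4, and in the other 3 tumors Ccl5 was below every Ccl11 value. The range of Ccl24 reached that of Ccl3. When the length of the longest coding transcript was used, Ccl8 and Ccl6 kept the first and second places, Ccl2 moved from place 5 to place 3 (56.8 CPM per kb in place of 40.6), and Ccl5 moved above Ccl24 (13.5 CPM per kb in place of 7.50).

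Of the summed CPM per kb of the 10 ligands, Ccl8 made up 4.78%, 3.30%, 14.9% and 12.2% in EtOH 1 to 4 and 34.1%, 31.7%, 38.3% and 36.5% in calcipotriol 1, 5, 6 and 7. This share did not overlap between the groups, and calcipotriol 1 was within the range of its group. The share of Ccl9 was 17.3% to 23.0% with EtOH and 7.11% to 10.4% with calcipotriol. Ccl6 made up 24.9% to 28.8% with EtOH, 13.1% in calcipotriol 1 and 27.9% to 29.3% in calcipotriol 5, 6 and 7. The sum itself was 109.6, 133, 316 and 302 CPM per kb in EtOH 1 to 4 and 369, 558, 534 and 447 CPM per kb in calcipotriol 1, 5, 6 and 7. The level of Ccl9 itself was 42.8 and 41.9 CPM per kb in the 2 groups.

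**Figure D3:**
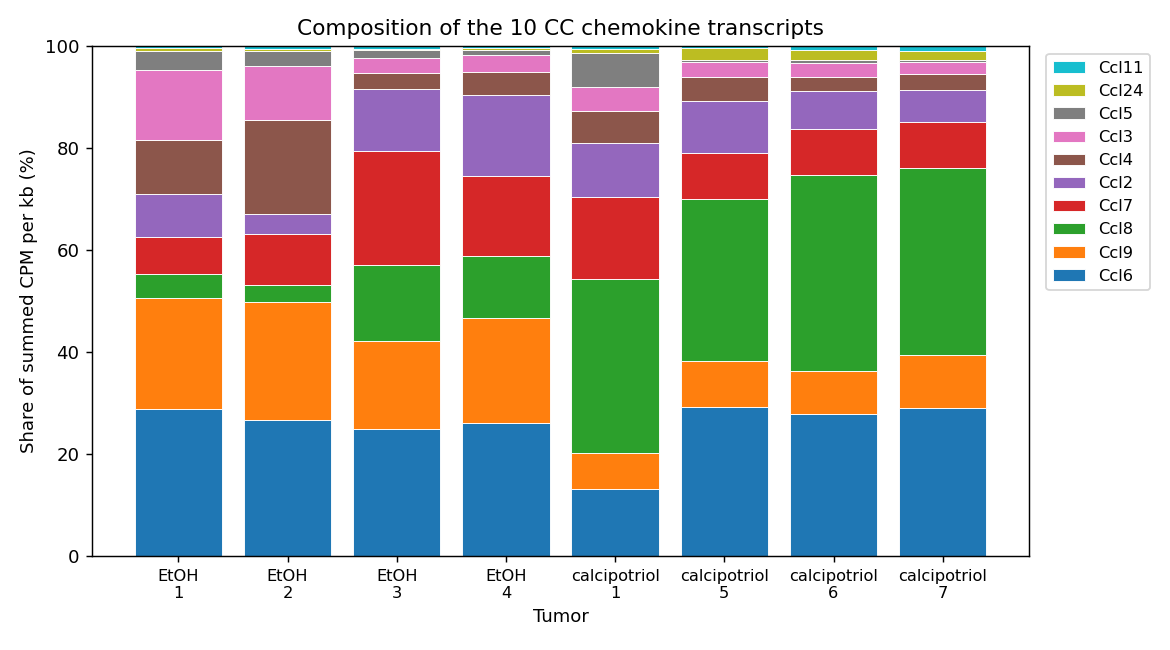
Share (%) of each ligand in the summed CPM per kb of the 10 CC chemokine transcripts, as a stacked bar for each tumor. The Ccl8 segment takes 3.30% to 14.9% of the EtOH bars and 31.7% to 38.3% of the calcipotriol bars.

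Whether ligands changed unequally was tested with the log2 ratio of 2 ligands in each tumor, for 6 pairs of chromosomal neighbors or ligands of a shared receptor. The log2 ratio of Ccl8 to Ccl2 was -1.94, -1.38, -0.86 and -1.54 in EtOH 1 to 4 and 0.55, 0.49, 1.21 and 1.41 in calcipotriol 1, 5, 6 and 7. The groups did not overlap in this ratio, which is not corrected for length. Per kb, Ccl8 took a larger share than Ccl2 in EtOH 3 as well (14.9% against 12.2%). The ratio differed by 2.34 on the log2 scale, and that of Ccl8 to Ccl7 by 2.5. Ccl8 to Ccl11 differed by 1.89 and Ccl24 to Ccl11 by 1.66. For each of these pairs the groups did not overlap, and an exact two-sided permutation test gave p = 0.0286, the smallest possible (0.0343 after Benjamini-Hochberg adjustment over the 6 pairs, which were picked with earlier results known). Groups that do not overlap always give this p, so it is the same fact stated again. The share of all gene pairs with such a ratio was not counted, so nothing particular to these pairs can be read from it.

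In the EtOH group, the ratio of Ccl6 to Ccl9 varied less than either gene. It was -0.36, -0.55, -0.24 and -0.42 on the log2 scale in EtOH 1 to 4, an SD of 0.13, while each gene varied over 2-fold across the same tumors (2.5-fold for Ccl6 and 2.60-fold for Ccl9). In calcipotriol 1, 5, 6 and 7 it was 0.12, 0.95, 0.96 and 0.72, with a wider SD of 0.39, above every EtOH-treated tumor. The difference of 1.08 had the exact permutation p that this lack of overlap fixes, 0.0286 (0.0343 adjusted), and it was 1.27 without calcipotriol 1. Ccl3 to Ccl4 differed by -0.11 between the groups, which overlapped (exact permutation p = 0.743).

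**Figure D4:**
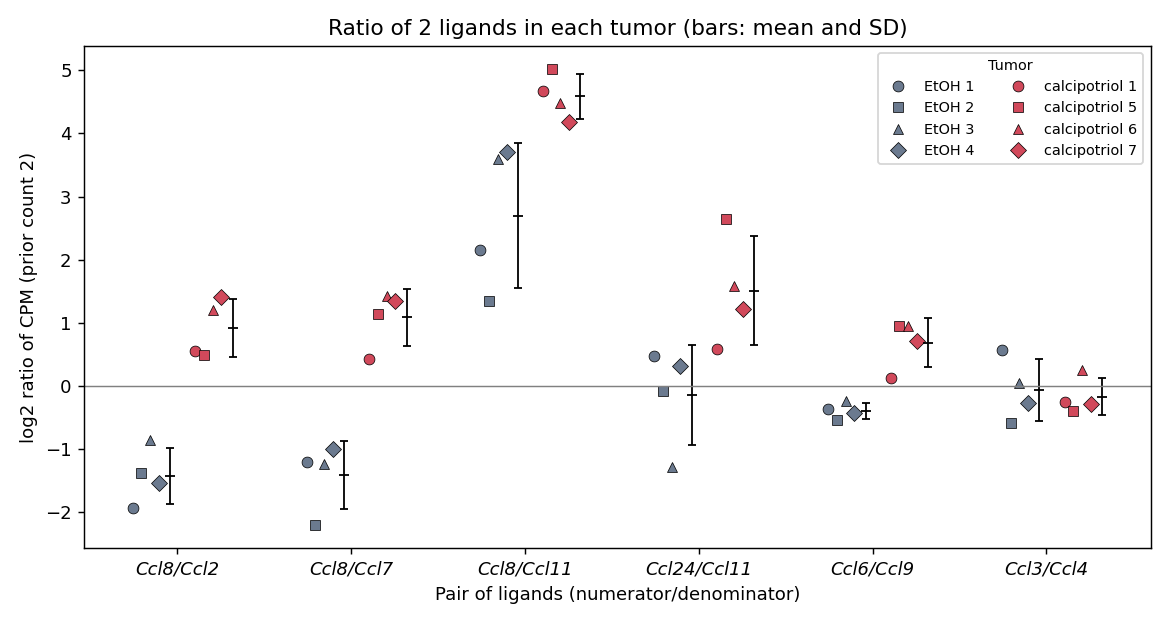
Log2 ratio of the CPM of 2 ligands in each tumor, for 6 pairs, with EtOH-treated tumors in gray, calcipotriol-treated tumors in red, and bars for mean and SD (n = 4). The groups are apart for 5 pairs and overlap for Ccl3/Ccl4, and the EtOH points of Ccl6/Ccl9 are close together, between -0.55 and -0.24.

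Covariation was examined on the deviation of each tumor's log2 CPM from the mean of its own group, so that the treatment difference plays no part. In the EtOH group 6 members (Ccl2, Ccl6, Ccl7, Ccl8, Ccl9 and Ccl11) were lower in both EtOH 1 and 2 than in EtOH 3 and 4, as were 29.3% of all genes. For 5 of them, all but Ccl9, EtOH 1 and 2 were the lowest of all 8 tumors, against 11.7% of all genes. Ccl8 deviated by -1.42 and -1.66 in EtOH 1 and 2 and by 1.71 and 1.37 in EtOH 3 and 4 on the log2 scale, and Ccl2 and Ccl7 deviated in the same directions. Ccl3 had the opposite pattern, at 0.36 and 0.25 in EtOH 1 and 2 and -0.36 and -0.25 in EtOH 3 and 4.

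In the calcipotriol group, calcipotriol 1 was the lowest tumor for 5 members (Ccl6, Ccl8, Ccl9, Ccl11 and Ccl24), against 30.6% of all genes. Its deviation was -1.20 for Ccl6, -0.63 for Ccl9, -1.40 for Ccl24 and 2.86 for Ccl5. Calcipotriol 7 was the lowest for Ccl2, Ccl3, Ccl4 and Ccl7. Calcipotriol 5 held the highest level of all 8 tumors for Ccl2, Ccl3, Ccl4, Ccl6 and Ccl24. The shares of all genes with these patterns in calcipotriol 5 and 7 were not counted, so nothing particular to the chemokines can be read from them.

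**Figure D5:**
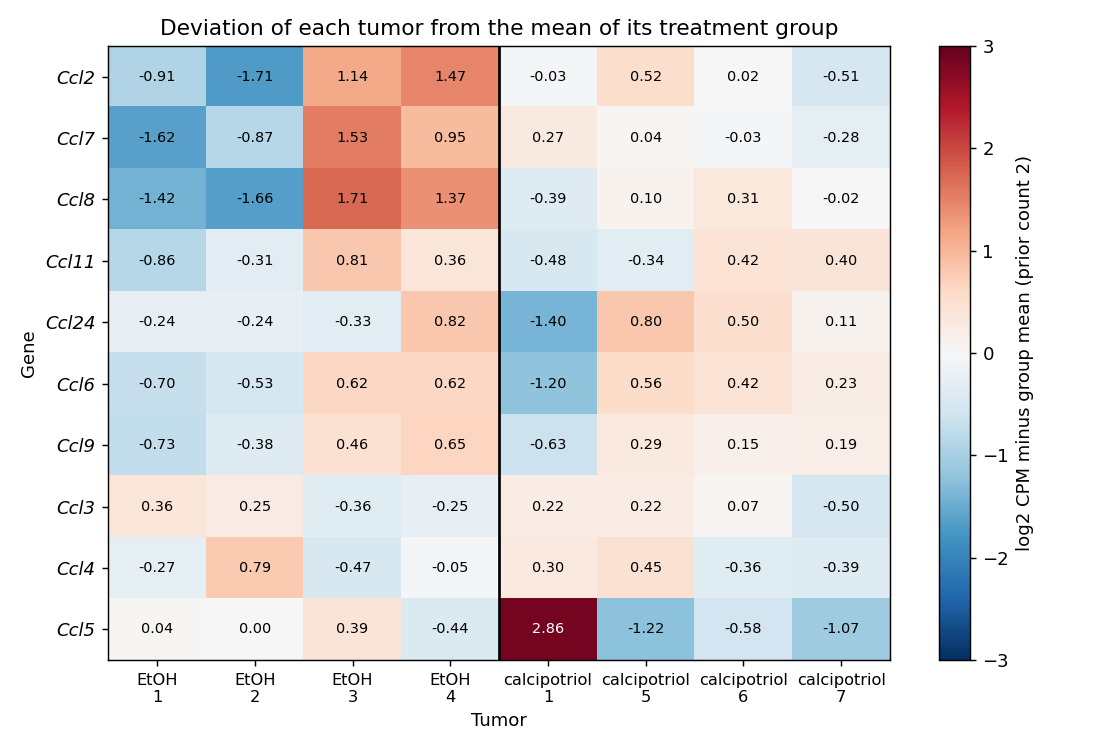
Deviation of each tumor's log2 CPM from the mean of its treatment group, for the 10 CC chemokine transcripts (rows) and 8 tumors (columns), red for above and blue for below the mean. EtOH 1 and 2 are blue for Ccl2, Ccl6, Ccl7, Ccl8, Ccl9 and Ccl11, and calcipotriol 1 is blue for Ccl6, Ccl9 and Ccl24 and red (2.86) for Ccl5.

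Of all 45 pairs of members, no correlation passed after Benjamini-Hochberg adjustment over the pairs (smallest adjusted p = 0.254 for Pearson's r and 0.273 for Spearman's rho, by exact permutation within groups), and 6 and 4 pairs had an unadjusted p under 0.05. The highest r was that of Ccl6 and Ccl9, at 0.95 (exact permutation p = 0.00694, adjusted p = 0.254) with rho = 0.93 (exact permutation p = 0.0122, adjusted p = 0.273), and r was 0.93 without the 2 tumors farthest from the median. Next came Ccl2 and Ccl8 with r = 0.94 (exact permutation p = 0.109, adjusted p = 0.339) and rho = 0.93 (exact permutation p = 0.0799, adjusted p = 0.491), and Ccl7 and Ccl8 with r = 0.93 (exact permutation p = 0.231, adjusted p = 0.436) and rho = 0.81 (exact permutation p = 0.2535, adjusted p = 0.495). Without 2 tumors these were 0.89 and 0.89. In all 3 pairs both genes were low in EtOH 1 and 2 and high in EtOH 3 and 4, so these r values share that split. Calcipotriol 1 was the lowest of its group for both Ccl6 and Ccl9. Their r was 0.94 to 0.97 when any 1 tumor was left out. Ccl5 and Ccl24 ran in opposite directions over the 8 tumors, with r = -0.90 (exact permutation p = 0.0226, adjusted p = 0.254) and rho = -0.83 (exact permutation p = 0.00868, adjusted p = 0.273). Without the 2 tumors farthest from the median of Ccl5, r was -0.60, so this relation leaned on those tumors. Ccl3 and Ccl4 had r = 0.59 (exact permutation p = 0.1875, adjusted p = 0.422) and rho = 0.69 (exact permutation p = 0.104, adjusted p = 0.491), and r = 0.27 without 2 tumors.

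As a description, the genes whose deviations were most like those of a member were named among 12311 protein-coding genes, by Pearson's r over the 8 tumors. Lif, a cytokine of the interleukin 6 family, was nearest to Ccl8 (r = 0.997), and Mmp19, a matrix metalloproteinase, to Ccl7 (r = 0.996). Nearest to Ccl5 was Tap1, a peptide transporter of antigen presentation (r = 0.99), followed by Clec4a3 (r = 0.99). For Ccl24 it was Neurl1b (r = 0.98), for Ccl6 Cdc20, a regulator of cell division (r = 0.99), and for Ccl9 Tmem237 (r = 0.99). Dhrs7b was nearest to Ccl2 (r = 0.997), Azin2 to Ccl3 (r = 0.98), Actr10 to Ccl4 (r = 0.97) and Pola1, a subunit of DNA polymerase α, to Ccl11 (r = 0.97). Of these 10 genes none passed the test between the groups, and Lif came nearest with a log2 fold change of 1.37 (edgeR adjusted p = 0.0638). These r values are the highest of 12311 for each member over only 8 tumors, which share the split described above.

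Of 11 other CC ligands, 4 had enough reads to be tested (Ccl12, Ccl21a, Ccl25 and Ccl27a) and 0 passed with edgeR, DESeq2 or limma-voom. With edgeR 0 had an unadjusted p under 0.05, against 18.4% of all genes. Ccl12, the neighbor of these genes that also attracts monocytes, had 71, 78, 746 and 730 counts in EtOH 1 to 4 and 706, 165, 156 and 157 counts in calcipotriol 1, 5, 6 and 7. It shared the low EtOH 1 and 2 with Ccl2, Ccl7 and Ccl8, but was low in calcipotriol 5, 6 and 7, where these were not (log2 fold change -0.49, edgeR adjusted p = 0.784). Ccl17 and Ccl22, ligands of Ccr4, had at most 24 and 27 counts in a tumor and were not tested. Ccl21a and Ccl27a have near-identical gene copies, so their counts are uncertain.

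Of 15 CC receptors, 8 were tested and 1 was lower past the thresholds, against 0.948% of all genes. This was Ccrl2, an atypical receptor that binds the chemoattractant chemerin, at 14.9, 17.7, 18.9 and 12.6 CPM in EtOH 1 to 4 and 8.94, 4.84, 4.95 and 5.13 CPM in calcipotriol 1, 5, 6 and 7. It fell by 1.42 on the log2 scale (SE 0.26, edgeR adjusted p = 0.0207). It lost the call in 6 of the 8 fits that leave out 1 tumor, those without EtOH 1, 2 or 3 or calcipotriol 5, 6 or 7. Ccr2, the receptor of Ccl2 and Ccl7, was at 23.2, 27.9, 81.1 and 75.1 CPM in EtOH 1 to 4 and 43.1, 5.66, 9.95 and 9.28 CPM in calcipotriol 1, 5, 6 and 7. Its log2 fold change was -1.61 (SE 0.64, edgeR adjusted p = 0.213), and it passed, as lower, without calcipotriol 1, against 2.7% of all genes in that fit. Ccr1, the receptor of Ccl6 and Ccl9, had a log2 fold change of -0.42 (edgeR adjusted p = 0.49).

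All 11 pan-macrophage markers had a negative log2 fold change, and 2 passed as lower, against 0.948% of all genes, the surface receptors Adgre1 (log2 fold change -1.24, edgeR adjusted p = 0.0325) and Csf1r (log2 fold change -1.64, edgeR adjusted p = 0.0374). Of 8 markers of alternatively activated macrophages, 3 rose past the thresholds, against 1.07% of all genes, the scavenger receptor Cd163 (log2 fold change 1.87, edgeR adjusted p = 0.0192), Chil3 (5.50, edgeR adjusted p = 0.0353) and Retnla (4.43, edgeR adjusted p = 0.0215). The log2 fold changes of Mrc1, Arg1 and Folr2 were negative, at -0.45, -0.12 and -0.47, and did not pass. With limma-voom Chil3 (adjusted p = 0.057) and Retnla (adjusted p = 0.108) missed the threshold, and Chil3 was at 1940 CPM in calcipotriol 5 against 57.9 to 283 CPM in the others of its group. Of 8 fits that each leave out 1 tumor, Adgre1, Csf1r and Chil3 passed in 1, the fit without calcipotriol 1, Cd163 in 3 and Retnla in 5. The summed level of the 8 alternative activation markers was 534 to 1093 CPM with EtOH. It was within this range in calcipotriol 1, 6 and 7, at 762 to 1085 CPM. In calcipotriol 5 it was 2855 CPM, of which Chil3 made up 1940 CPM. All 6 endothelial markers had a negative log2 fold change, and 3 passed as lower, against 0.948% of all genes. These were Pecam1 (log2 fold change -1.36, edgeR adjusted p = 0.033), Kdr (-1.75, edgeR adjusted p = 0.00384) and Clec14a (-3.09, edgeR adjusted p = 0.0472). With limma-voom Pecam1 (adjusted p = 0.0522) and Clec14a (adjusted p = 0.273) missed the threshold. The part of the macrophage and endothelial markers in the chemokine levels was not tested.

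The mean log2 CPM of the 11 pan-macrophage markers was 1.02 lower with calcipotriol (7.19 ± 0.11 with EtOH and 6.16 ± 0.45 with calcipotriol, SD, n = 4 each). Subtracting it in each tumor moves every gene by the same amount, and on this scale 46.8% of all genes were higher in every calcipotriol-treated than in every EtOH-treated tumor, as were 7 of the 10 members. A count on this scale is therefore no result about the chemokines. The differences were 4.54 for Ccl8 and 4.31 for Ccl24 on the log2 scale.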

How the data were processed

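RNA-Seq was performed by the authors on whole mammary tumors, 4 for each treatment. For every gene and tumor the authors deposited an expected count, an estimate that was not normalized between tumors, and 4.20% to 6.22% of a tumor's values were not whole. The submitters' processing notes name STAR 2.5.3, RSEM 1.3.1, DESeq2 1.24.0 and GRCm38 without their roles, and the annotation is not given in the sources used here. The library kit is not stated to keep strand. The table has 0 columns of other samples. Estimated counts depend on how reads shared by similar genes were divided, and bulk libraries mix all cells of a tumor.

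The deposited expected counts were rounded to whole numbers, although the tests had been planned for counts. Of 55414 identifiers, 52133 matched a symbol in GENCODE M21. Groups and replicate numbers came from the labels. The paper describes the 4 replicates of each group as biological, without saying that each came from a separate mouse. Where they did not, p-values measure only the spread between these samples. In R 4.3.3, edgeR 4.0.16 (filterByExpr, TMM, glmQLFit and glmQLFTest, Benjamini-Hochberg adjustment over 14458 genes) compared the groups, with a biological coefficient of variation of 0.347. Log2 CPM used a prior count of 2. Single values and ratios were compared by two-sided exact permutation over 70 arrangements of the tumors, enumerated in Python 3.11.15, which cannot give a p below 0.0286. Intervals of counting error do not cover PCR copies, which are not independent molecules. Levels between genes were divided by exon length. Promoters were aligned with Biopython 1.88. Alternatives were DESeq2 1.42.0, limma-voom (limma 3.58.1), DESeq2 size factors, other filters, no fold minimum, other prior counts and leaving out each tumor. The members, the gene lists and the ligand pairs were chosen with earlier results of these data known. The genes named are the members, list genes past the thresholds or needed for a count of 5 or fewer, marker genes at 0 or in the outlying tumor, which were picked after their values were seen, and the gene most like each member out of the 3 nearest. The values of 1 receptor are not reported here.

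In data simulated from these libraries with 192 tested genes set to differ by 2 on the log2 scale, among 14261 genes tested, edgeR recovered 185 with 8 false calls, limma-voom 185 with 10 and DESeq2 186 with 20. Every simulated gene had the same dispersion of 0.12, and the tumors of a group had the same expected level. The simulation held no EtOH split and no outlying tumor, so it cannot show how well the tests did in these data.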

Additional observations from a re-analysis of the deposited data

Results flagged for a closer look

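In each gene and treatment group, the gap between the highest or lowest tumor and its nearest neighbor was compared with the range of the 4 tumors in log2 CPM. Of 20 such groups 3 had a tumor far from the others. About 1 in 20 is the rate for independent groups, but these groups share the same tumors. The share over all genes was not counted, so no excess over chance can be read from the 3. Ccl5 in calcipotriol 1 was at 23.88 CPM, against 1.33 to 2.12 CPM in calcipotriol 5, 6 and 7. Ccl9 in calcipotriol 1 was at 79.81 CPM, against 138 to 152 CPM in the others of its group. Ccl24 in EtOH 4 was at 1.72 CPM, against 0.729 to 0.779 CPM in EtOH 1, 2 and 3, which is 39 counts against 16 to 18.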

How the results depend on the processing

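Of 130 alternative fits of a member's log2 fold change, 115 kept direction and side of the threshold, 8 newly passed, 1 no longer passed (Ccl24 with limma-voom) and 6 reversed. The number of genes past both thresholds was 458 with no filter on low counts, 640 with DESeq2 and 110 to 642 with 1 tumor left out, the most without calcipotriol 1. The members past both thresholds were 2 with no filter or with at least 10 counts in every tumor (Ccl8 and Ccl24 in both, where 1.04% and 1.09% of all genes were higher), 3 with DESeq2 (Ccl8, Ccl11 and Ccl24, 2.18% higher), 1 with limma-voom (Ccl8, 0.865% higher) and 1 to 3 with 1 tumor left out. The 3 came without calcipotriol 1 (Ccl6, Ccl8 and Ccl24, 1.62% higher), and 2 without EtOH 3 (Ccl8 and Ccl24, 0.605% higher). With 1 tumor left out, 0 to 2 receptors and 1 to 18 marker genes passed, in place of 1 and 8 with all tumors. The most passed without calcipotriol 1, where 1.62% of all genes were higher and 2.7% lower past the thresholds. The members whose groups do not overlap were 3 to 5 in these settings. There were 4 without EtOH 2, where Ccl4 joined, and 4 without calcipotriol 7, where Ccl3 joined. The shares of all genes in these 2 settings were not counted. There were 5 without calcipotriol 1, where Ccl6 was higher (10.8% of all genes) and Ccl5 lower (12.2%). Relative to the pan-macrophage list, 7 members in place of 3 reached the smallest exact permutation p, where 46.8% of all genes were higher without overlap, so the count says nothing particular about them.

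With 1 tumor left out, the log2 fold change ran from -1.22 (without calcipotriol 1) to 1.26 for Ccl5 and from -0.23 to 0.20 for Ccl9, and with limma-voom they were -0.16 and 0.032. The difference in mean log2 CPM ran from -1.17 to 0.19 for Ccl5 and from -0.21 to 0.25 for Ccl9, and relative to the macrophage list it was 0.81 for Ccl5. The Ccl3 to Ccl4 ratio differed by -0.29 to 0.10. Apart from the settings that leave out a tumor, the cause of these reversals was not tested. No paired analysis was possible because the groups share fewer than 2 replicate numbers. Ccl11 and Ccl24 rest on few counts with EtOH (11 to 47 and 16 to 39 per tumor), which limits their fold changes.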
